A study of Mus musculus with 6 samples.

Results

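The genes described here are the mouse genes named Zfp and a number, a naming series for zinc finger proteins, measured in the immortalised mouse microglial line BV2. Of 364 such protein-coding genes in GENCODE M21, the deposited table held 283, and the 255 whose mean over the 6 libraries was at least 1 FPKM (fragments normalised for transcript length and library size) were taken as members, out of 12327 genes in the table. Zfp36, which encodes an mRNA-destabilising protein of another kind, was left out. The other 28 genes of the series in the table had lower means, and 81 were not analysed here because the table did not list them. The cut fell in a run of like values: Zfp128, Zfp438 and Zfp763 stood just inside at 1.02, 1.03 and 1.03 FPKM, and Zfp560, Zfp82 and Zfp428 just outside at 0.998, 0.946 and 0.890 FPKM. Members were chosen by name and by their mean FPKM over both groups, and the family was taken up because Zfp422 had already been seen to be low after knockdown in these data. Zfp422 was in effect selected on its fold change, so its values are given as a description, and nothing is read from its test.

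RNA depleted of ribosomal RNA was sequenced from 3 libraries with the genotype label GCH1-KD and 3 labelled negative control. GCH1 is the first enzyme of tetrahydrobiopterin synthesis. The labels describe the knockdown cells (Ad-shGCH1) as infected with adenovirus for 48 hours, and name the other cells of the same subline Ad-NC, whereas wild type is the series text's term for them. From these labels it is unclear whether the controls received a virus, so effects of the hairpin, of infection and of off-target silencing cannot be told apart. The hairpin sequence is not given in the sources used here, only 1 hairpin is named, and nothing states that replicate libraries were made from different cultures. All p-values then measure the spread between these libraries alone, which may be technical.

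C2H2 zinc fingers are short repeats in which pairs of cysteine and histidine residues hold a zinc ion, so that each finger can contact a few bases of DNA. Many mouse genes of this series also carry a KRAB box, a domain that recruits the corepressor TRIM28 (also called KAP1) and through it the histone methyltransferase SETDB1 and HP1 proteins. KRAB zinc finger genes arose largely by tandem duplication and are known for silencing retroviral elements and keeping imprinted marks. Other members have no KRAB box and serve as ordinary transcription factors, as cofactors, or in RNA processing and ribosome quality control.

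Zfp422, also known as Krox-26 and the mouse counterpart of human ZNF22, is a compact gene of this kind. Its coding sequence of 711 bases lies in 1 exon on chromosome 6 (GRCm38, minus strand, gene from 116624016 to 116628999) and encodes 5 fingers in tandem, without a KRAB box. The coding sequence of each finger, from GENCODE M21, is shown because the gene stands apart from the family in the results below. Capitals mark the codons of the zinc-binding cysteines and histidines.

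Finger 1, chr6:116626806-116626868: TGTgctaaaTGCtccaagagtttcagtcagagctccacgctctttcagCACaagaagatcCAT
Finger 2, chr6:116626722-116626784: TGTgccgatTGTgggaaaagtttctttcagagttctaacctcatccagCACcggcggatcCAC
Finger 3, chr6:116626638-116626700: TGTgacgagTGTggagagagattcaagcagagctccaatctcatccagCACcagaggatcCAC
Finger 4, chr6:116626554-116626616: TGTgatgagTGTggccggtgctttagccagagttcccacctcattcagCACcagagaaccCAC
Finger 5, chr6:116626470-116626532: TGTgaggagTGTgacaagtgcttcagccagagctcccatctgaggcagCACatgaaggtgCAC

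All 5 fingers had the same length of 63 bases and the same spacing, with 2 codons between the cysteines, 12 between the second cysteine and the first histidine, and 3 between the histidines. Pairs of fingers were identical at 61.9% (fingers 2 and 5) to 77.8% (fingers 2 and 3) of their bases. No stretch of 50 bases of the Zfp422 coding sequence occurred in the coding sequence of any other gene of the series, and no other annotated gene overlapped it.

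The 6 libraries summed to 224291 to 230292 FPKM each. No read counts were given. From the spacing of the values, and if they are FPKM, the aligned sequence was estimated at 5.25 to 5.58 Gb (gigabases) in the controls. In the knockdown libraries it was 6.32 to 7.61 Gb, with no overlap. Levels of the targeted gene, Gch1, were 6.89 to 7.23 FPKM for control libraries against 2.93 to 3.43 FPKM for knockdown, as labelled. Of 15 microglial and macrophage markers 14 were in the table, with summed levels of 1303 to 1310 FPKM in the controls and 1264 to 1304 FPKM after knockdown. P2ry12 was not listed. Of 31 markers of neurons, astrocytes, oligodendrocytes, fibroblasts, endothelial cells and lymphocytes, 7 were listed.

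The 3 control libraries held Zfp422 at 4.78, 4.99 and 5.67 FPKM, the 3 knockdown libraries at 0.998, 1.05 and 0.811 FPKM. The highest knockdown value was 22.0% of the lowest control value, so the groups lay far apart. The means were 5.15 ± 0.47 and 0.953 ± 0.126 FPKM (SD, n = 3 each), or 18.5% of control. The knockdown values rest on an estimated 16.3 to 24.2 kb of aligned sequence and the control values on 83.5 to 99.8 kb, taking the longest transcript. In bulk RNA, fewer cells with the transcript and less RNA per cell cannot be told apart. The log2 fold change was -1.65. Each fold change given here is the knockdown mean less the control mean of log2(FPKM + 1). With a pseudocount of 0.1 it was -2.32.

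Within the family Zfp422 stood in the upper part of the range in the controls and near its bottom in the knockdown libraries. By mean level it ranked 73rd of 255 in the controls and 254th in the knockdown libraries. Its fold change was the lowest of all 12222 genes tested and lay 0.91 log2 units below that of the next member, Zfp28. The interquartile range of the other 254 members was 0.13 log2 units wide (from -0.03 to 0.10), and the distance of Zfp422 from their median was 12.6 times that width. The spread of Zfp422 between libraries of the same group was the 112th largest of 255.

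**Figure D1:**
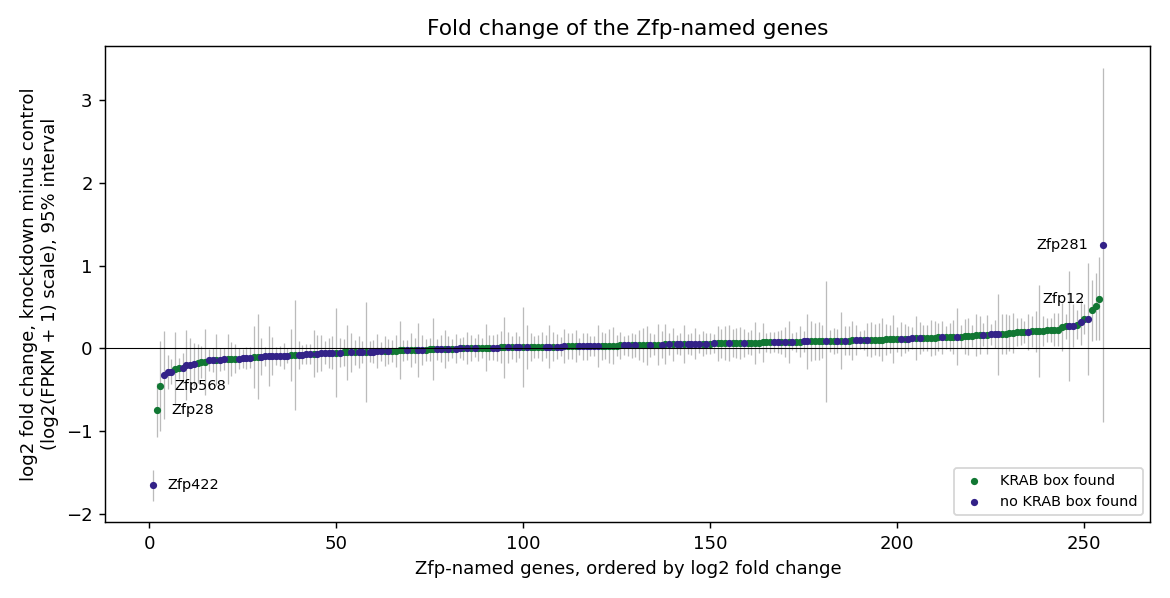
Log2 fold change, knockdown minus control on the log2(FPKM + 1) scale, of the 255 Zfp-named genes in rank order, with 95% intervals from limma as grey lines. Points are coloured by whether a KRAB box was found. Zfp422 lies at -1.65, below Zfp28 at -0.75, while Zfp281 at the other end has an interval from -0.90 to 3.39.

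The 3 members nearest to Zfp422 on chromosome 6 lay 1212 to 1798 kb from its ends. Mean levels of Zfp637 were 1.76 ± 0.22 FPKM for control and 1.95 ± 0.11 FPKM for knockdown (SD, n = 3 each; log2 fold change 0.10, limma adjusted p = 0.644). Zfp248 had a log2 fold change of 0.07 (adjusted p = 0.724) and Zfp239 one of 0.09 (adjusted p = 0.935). The interval of Zfp239 was wide, from -0.64 to 0.82, and its fold change was -0.28 without control library 2 and 0.28 without control library 3. Rassf4, the nearest gene in the table, 4.01 kb away and of another family, was added once values were known. Its means were 15.4 ± 0.13 FPKM and 15.9 ± 0.38 FPKM (log2 fold change 0.04, adjusted p = 0.677).

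Zfp422 left aside, none of the 254 other members passed the test. Over all 12222 genes, 10 (0.0818%) passed a Benjamini-Hochberg adjusted p of 0.05 in limma's moderated test, 7 lower (0.0573%) and 3 higher (0.0245%). With a block for replicate number, 0 genes passed. Without the block Zfp422 is one of the 7 lower genes, and nothing is read from that, since it was chosen on this comparison. The lowest adjusted p among the others was 0.236. At an unadjusted p under 0.05 there were 30 of these 254 members (11.8%), against 11.3% of all genes tested. They were 21 higher (8.27%) and 9 lower (3.54%), against 6.47% and 4.82% of all genes. Among the 10684 protein-coding genes tested, 569 were higher and 547 lower at this limit. In 48 of the 255 members (18.8%) the groups did not overlap, against 18.4% of all genes. Of these 48 members 34 were higher after knockdown (13.3% of the 255) and 14 lower (5.49%), against 9.99% and 8.36% of all genes. By both measures the totals were close to those of all genes, while the higher share lay above and the lower share below, a split that was not tested. It lay in the 142 members with a KRAB box, whose low GC content is given below. Of these, 17 were higher and 2 lower at an unadjusted p under 0.05 (13.4% in all), and 23 and 3 without overlap (18.3%). Of the 112 others apart from Zfp422, 4 were higher and 7 lower (9.82%), and 11 and 10 without overlap (18.8%).

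The size of change that the libraries left room for was read from the intervals. The 95% interval of the fold change lay within a 2-fold change in either direction in 249 members (97.6%, against 98.7% of all genes), and within a 1.5-fold change in 235 (92.2%, against 95.2%). The 6 members whose interval reached past 2-fold were Zfp422, Zfp28, Zfp568, Zfp451, Zfp12 and Zfp281. The pseudocount of 1 shrinks changes at these low levels, and with one of 0.1 the interval lay within 2-fold in 239 members. Apart from Zfp422, 237 members (93.3%) had a fold change within 0.25 log2 units of 0, against 11609 of all 12222 genes tested, and 4 lay beyond 0.5.

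Zfp28, a KRAB gene with 14 fingers on chromosome 7 (6383295 to 6396915), had the next lowest fold change. Control values were 2.57, 2.33 and 2.47 FPKM, and knockdown values 0.913, 0.761 and 1.58 FPKM. All 3 knockdown values were under all 3 controls, with knockdown library 3 between the others and the control range. The log2 fold change was -0.75 (SE 0.14, limma adjusted p = 0.236), and without knockdown library 3 it was -0.91 with an adjusted p of 0.0378. Over all alternatives the adjusted p ran from 0.0378 to 0.464. The difference between Zfp28 and Zfp422 was not tested.

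Zfp568, a KRAB gene known for repressing a placental promoter of Igf2, had control values of 3.14, 1.33 and 3.52 FPKM and knockdown values of 1.49, 1.53 and 1.69 FPKM. Control library 2 lay below all the knockdown libraries, so the groups overlapped. The log2 fold change was -0.46 (limma adjusted p = 0.501). Without control library 2 it was -0.75 with an adjusted p of 0.0423, and over all alternatives the adjusted p ran from 0.0423 to 0.744.

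Zfp467, a factor known from osteoblast and adipocyte differentiation, had control values of 2.07, 1.93 and 4.27 FPKM and knockdown values of 1.77, 1.59 and 2.38 FPKM. Control library 3 stood far above the rest and the groups overlapped (log2 fold change -0.32, limma adjusted p = 0.611). Without that library the log2 fold change was -0.05. In Zfp865 (log2 fold change -0.28, adjusted p = 0.344) the 3 knockdown values of 2.72 to 2.81 FPKM lay under the 3 controls of 3.02 to 3.98 FPKM. This gene overlaps 4 other annotated genes, 3 of them listed in the table, and its reads may be shared with them. Zfp827, which recruits the NuRD complex to telomeres, spanned 2.20 to 2.35 FPKM in control and 1.55 to 1.84 FPKM in knockdown libraries (log2 fold change -0.28, adjusted p = 0.262). Zfp382, a KRAB gene close to Zfp568 on chromosome 7, spanned 5.85 to 6.23 FPKM and 4.75 to 5.16 FPKM (log2 fold change -0.24, adjusted p = 0.261). In Zfp865, Zfp827 and Zfp382 the groups did not overlap, but none of these genes passed over all genes.

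The highest fold change of the family rested on a single library. Zfp281, a transcription factor known for regulating pluripotency genes, was at 11.1 and 12.1 FPKM in control libraries 1 and 2, at 0.0148 FPKM in control library 3, and at 12.9, 12.2 and 10.7 FPKM in the knockdown libraries. The value of control library 3 corresponds to an estimated 0.402 kb of aligned sequence, against 304 kb or more in each other library. The log2 fold change was 1.25 (SE 0.91, limma adjusted p = 0.627), and 0.04 (adjusted p = 0.923) without control library 3. Whether the low value is a failed estimate was not tested.

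In all, 4 of 255 members (1.57%) had a library more than 1 log2 unit from the nearer of the other libraries of its group, against 0.974% of all genes tested. Besides Zfp281 these were Zfp239, low in control library 2 (0.730 FPKM), Zfp664, low in control library 3 (2.23 FPKM against 5.83 and 6.04 FPKM in the other controls), and Zfp451. Zfp451, which encodes a SUMO ligase, had control values of 3.07, 3.36 and 3.38 FPKM and knockdown values of 3.22, 3.18 and 8.24 FPKM. Its log2 fold change of 0.35 (adjusted p = 0.661) became -0.02 without knockdown library 3.

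In 3 further members with high fold changes, Zfp12, Zfp324 and Zfp58, libraries of 1 group lay far apart. Zfp12, a KRAB gene, had control values of 2.73, 1.32 and 0.981 FPKM and knockdown values of 2.93, 2.93 and 2.86 FPKM. Control library 1 lay just below the knockdown libraries, the other controls far below (log2 fold change 0.60, SE 0.21, limma adjusted p = 0.379). Zfp324, a KRAB gene, had the same arrangement, with control values of 1.75, 0.777 and 0.889 FPKM and knockdown values of 1.85, 1.87 and 1.94 FPKM (log2 fold change 0.46, adjusted p = 0.375). Zfp58, a KRAB gene in the chromosome 13 group, spanned 1.69 to 1.87 FPKM in control libraries, with knockdown values of 3.22, 3.97 and 1.98 FPKM. Knockdown library 3 lay next to the controls (log2 fold change 0.51, adjusted p = 0.367). It overlaps the predicted gene Gm26965, also listed in the table. In Zfp12, Zfp324 and Zfp58 the groups did not overlap.

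**Figure D2:**
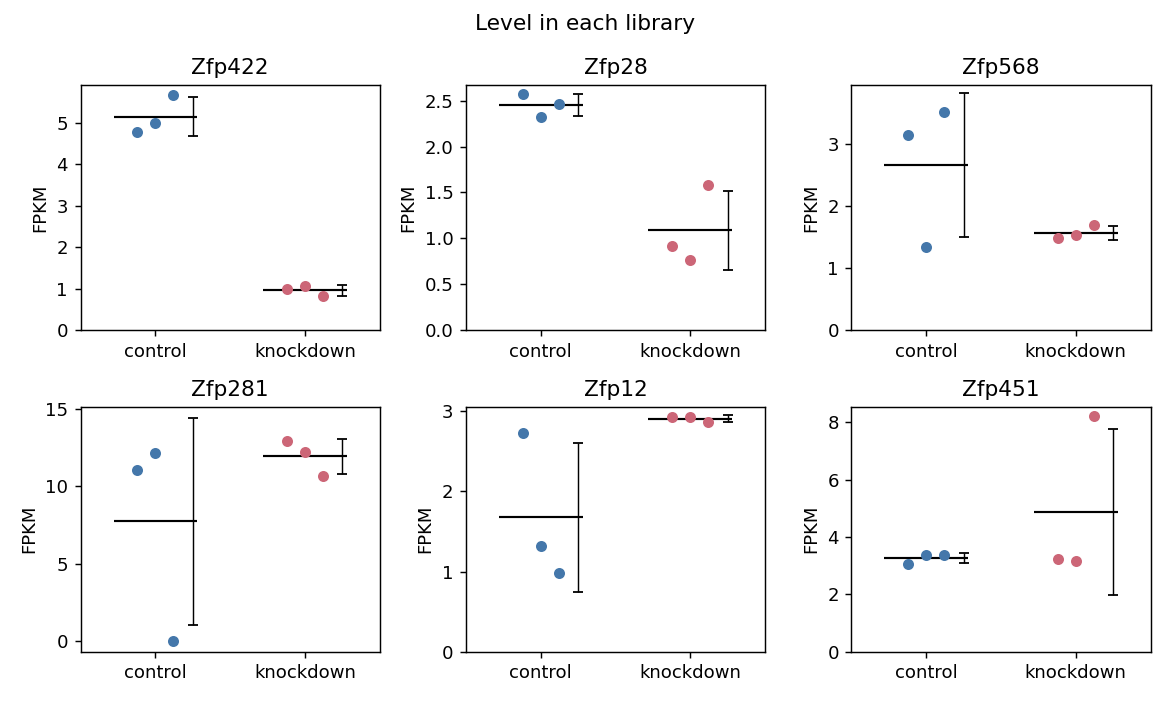
FPKM of 6 Zfp-named genes in each library, with the group mean as a line and the SD as a bar (n = 3 each). Zfp422 is separated in all 6 libraries, at 4.78 to 5.67 against 0.811 to 1.05 FPKM, while in Zfp281 (control 3) and Zfp451 (knockdown 3) 1 library stands apart, and in Zfp568 control 2 lies with the knockdown libraries.

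The members were expressed at low levels per unit of transcript length. Their mean FPKM had a median of 3.10, with a middle range from 1.83 to 5.57. The 10148 protein-coding genes tested with a mean of at least 1 FPKM, the members' own limit, had a median of 8.24. Over all 10684 protein-coding genes tested it was 7.65. Together they made up 0.489% to 0.538% of the FPKM of each library. Of them, 71 members lay between 1 and 2 FPKM and 22 at 10 FPKM or above.

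Zfp106, an RNA-binding protein gene needed for motor neuron and muscle maintenance, was the most abundant, with control values of 56.8, 60.4 and 53.4 FPKM and knockdown values of 54.2, 51.8 and 53.0 FPKM. Its groups overlapped (log2 fold change -0.10, limma adjusted p = 0.507). Zfp207, which encodes the spindle and splicing factor BuGZ, was next, with means of 17.9 ± 0.8 FPKM for control and 18.9 ± 0.9 FPKM for knockdown (SD, n = 3 each; adjusted p = 0.602). Zfp217, a transcription cofactor amplified in breast cancers, stood at 18.4 ± 1.0 and 18.4 ± 0.5 FPKM (adjusted p = 0.981). Zfp609, a partner of the Integrator complex and the cohesin loader, was at 18.1 ± 0.3 and 17.0 ± 0.4 FPKM. Its groups did not overlap (log2 fold change -0.09, adjusted p = 0.44). The KRAB gene Zfp655 spanned 14.8 to 17.3 FPKM in control and 17.8 to 20.1 FPKM in knockdown libraries, also without overlap (log2 fold change 0.20, adjusted p = 0.379). For these 5 genes the 95% intervals ranged from -0.22 at the lowest end to 0.36 at the highest.

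Spread between replicate libraries was compared with that of protein-coding genes of like level. The median within-group SD on the log2(FPKM + 1) scale was 0.11 for members of 1 to 2 FPKM and 0.11 for those of 2 to 5 FPKM. Over the protein-coding genes tested in the same ranges it was 0.10 and 0.09. Between 5 and 10 FPKM it was 0.06 for the members and 0.08 for all, and at 10 FPKM or above both stood at 0.06. These differences were not tested.

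A KRAB box was found in 142 of the 255 members by scoring their translated coding sequences, and 113 had none. The KRAB members had lower levels, with a median of 2.51 FPKM against 4.77 FPKM, and more fingers, with a median of 11 against 7. Across all members the number of fingers had a median of 10 and reached 36 in Zfp142. In 7 members no finger of the classical spacing was found, and 9 had 1. Zfp422, with 5, was among the shorter arrays.

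Most KRAB members stood slightly above control. Their median log2 fold change was 0.06, with 109 of 142 above control and 33 below, against 0.01 for members without a KRAB box (63 above, 50 below) and 0.01 over all genes tested (53% above). Of the protein-coding genes tested, 50.9% stood above control. Over all 255 members the median was 0.03, with 172 above control (67.5%) and 83 below. These medians are of the size of the spread between libraries: the library medians of KRAB members had an SD of 0.06 in the controls and 0.05 after knockdown. For the KRAB members the median deviation from each gene's own mean was -0.06, 0.03 and -0.09 in control libraries 1, 2 and 3, and 0.09, 0.04 and -0.01 in knockdown libraries 1, 2 and 3. Control library 2 therefore lay above knockdown library 3, close to knockdown library 2, and the groups overlapped. Without knockdown library 1 the share of all members above control was 57.6%, and the median was 0.04 for KRAB members and -0.01 for the others. The KRAB median was 0.03 without control library 3 and 0.09 without control library 2. The difference between the classes was not tested.

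**Figure D3:**
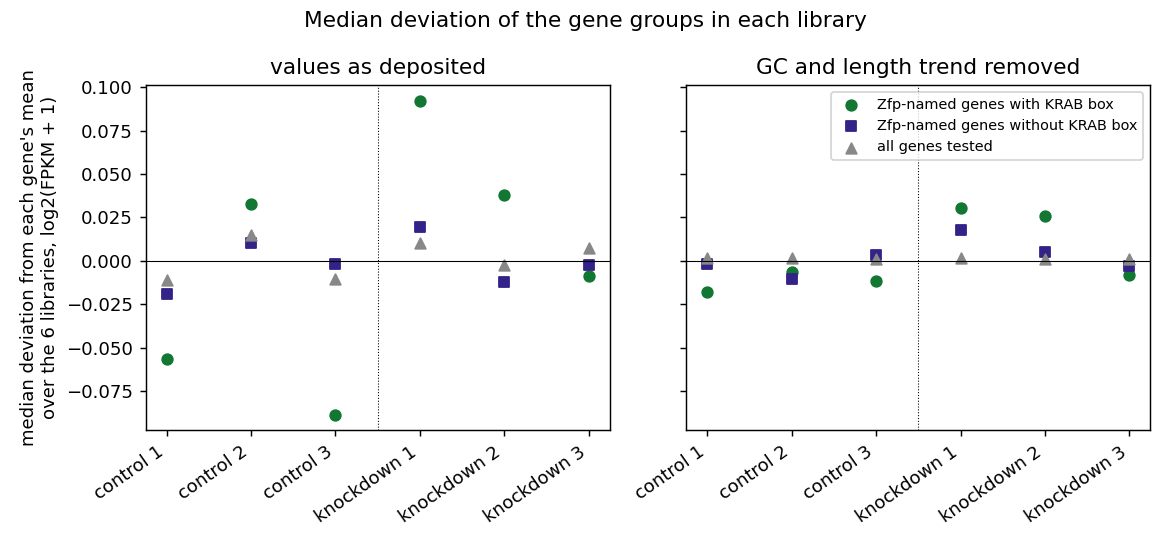
Median deviation of each library from the genes' own means over the 6 libraries, on the log2(FPKM + 1) scale, for members with and without a KRAB box and for all 12222 genes tested. On the left, with values as deposited, the KRAB members range from -0.09 (control 3) to 0.09 (knockdown 1). On the right, with the trend on GC content and transcript length removed, they range from -0.02 to 0.03.

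The base composition of the transcripts moved with these small differences. Transcripts of the KRAB members had a median GC content of 41.1%, against 50% for the other members and 49.6% for protein-coding genes. Of the 255 members, 125 (49.0%) fell in the lowest of 5 equal bins of protein-coding genes by GC content (under 43.7%), and 98 of these had a KRAB box. In that bin the median log2 fold change was 0.07 for members and 0.05 for all protein-coding genes. In the highest bin (over 55.5%) it was -0.04 for both, over 34 members. The share above control was 84% of members against 72.8% of protein-coding genes in the lowest bin, and 41.2% against 34.7% in the highest. In bin 4 (51.5% to 55.5%) the medians were 0.01 and -0.02, with 55.2% and 40.8% above control. Bins 2 and 3 were closer, with 60% against 56.4% and 50% against 49.7%. The differences within bins were not tested. Across the 254 members other than Zfp422, fold change and GC content had a Spearman's rho of -0.42, as a description over genes that share the same 6 libraries. With the GC and length trend removed from each library, the median was 0.01 for KRAB members and 0.01 for the others, and 53.3% of members were above control. Zfp422 was then at -1.69. By the estimate above the knockdown libraries were also the deeper ones, and the part of depth in these differences was not tested.

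**Figure D4:**
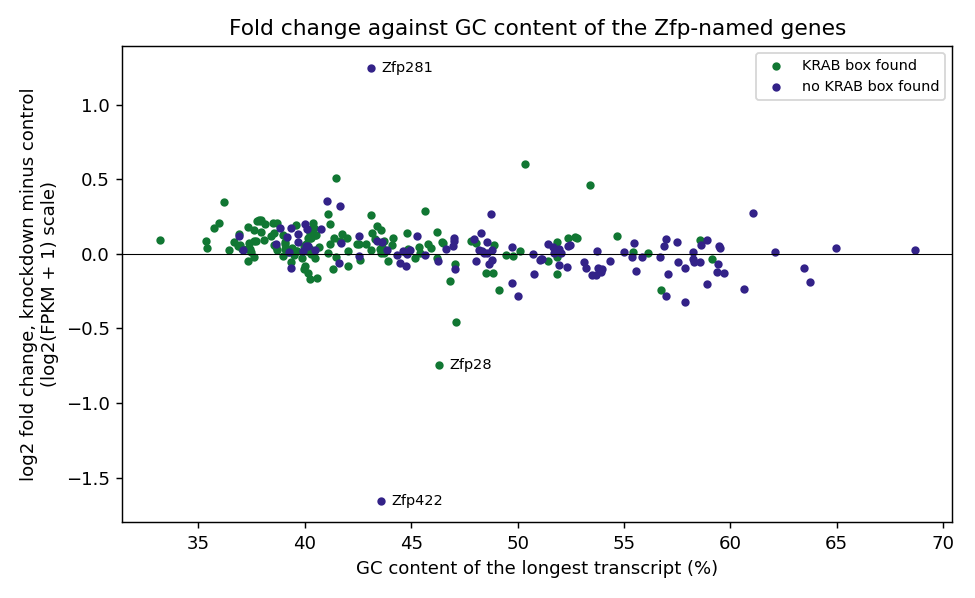
Log2 fold change, knockdown minus control, of each Zfp-named gene against the GC content of its longest transcript, coloured by KRAB box. Members of low GC content lie mostly above 0 (Spearman's rho -0.42 without Zfp422), and Zfp422 and Zfp281 lie far from the rest.

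Many members sit next to one another in the genome. Joining members no more than 200 kb apart gave 39 groups of 2 or more, which held 142 members. Of the KRAB members 73.9% were in such a group, and of the others 32.7%. The largest, on chromosome 13 (67038596 to 67792512), held 15 KRAB members, 13 above control and 2 below (median log2 fold change 0.07). Zfp595 was among them, spanning 1.42 to 1.67 FPKM in control and 1.89 to 2.02 FPKM in knockdown libraries (log2 fold change 0.22, limma adjusted p = 0.314). With the GC and length trend removed, its log2 fold change was 0.14. Zfp595 overlaps the predicted gene Gm28044. The next group, on chromosome 7 (29768552 to 30169750), held 11 members including Zfp568 and Zfp382, 7 above and 4 below. In a group of 8 KRAB members on chromosome 17 (21879570 to 22456689) all were above control, by 0.02 to 0.23 log2 units. A group of 5 members without KRAB box on chromosome 7 (4915217 to 5053723), which includes Zfp865, had 4 below control and a median of -0.19. For comparison, 76.8% of all KRAB members and 55.8% of those without a KRAB box stood above control. Median GC content was 39.6% over the members on chromosome 13, 39.4% on chromosome 17 and 48.8% on chromosome 7. The part of GC content in the directions of these groups was not tested.

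Some neighbours are near copies, and their values are uncertain. In 23 members more than 10% of all stretches of 50 coding bases also occurred in another gene of the series, and in 5 members all did. Of these 23 members 22 were above control. Their median log2 fold change was 0.10 and their median GC content 38.7%, which lies in the lowest GC bin. The 178 members with no shared stretch had a median of 0.02, with 101 above control and 77 below. Zfp965 and Zfp973, both on distal chromosome 2, had identical coding sequences of 954 bases. Their shared first finger is shown, with the same codons in capitals, because reads from it cannot be assigned to one gene or the other.

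Zfp965, first finger: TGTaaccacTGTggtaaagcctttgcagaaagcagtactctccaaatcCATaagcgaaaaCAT
Zfp973, first finger: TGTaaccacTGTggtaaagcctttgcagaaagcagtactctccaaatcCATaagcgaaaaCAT

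Control values of Zfp965 were 3.07, 2.96 and 2.80 FPKM, and knockdown values 4.39, 4.17 and 3.54 FPKM. For Zfp973 they were 2.93, 2.99 and 2.84 FPKM, and 3.98, 3.80 and 3.39 FPKM. In both genes every knockdown library lay above every control, with log2 fold changes of 0.35 and 0.27 (limma adjusted p = 0.261 and 0.287). With the GC and length trend removed, these fold changes were 0.24 and 0.19. Zfp966, Zfp967 and Zfp969, which share their coding sequences in the same way, had log2 fold changes of 0.18, 0.14 and 0.11, and their groups overlapped. Zfp973 also overlaps the predicted gene Gm14305. None of these 5 members passed over all genes.

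Outside these copies and Zfp595, the KRAB members Zfp90 and Zfp120 are named for an unadjusted p under 0.01. The share of all genes under that limit is not given here, so nothing is read from how many members passed it. In both, every knockdown library lay above every control, and 18.4% of all genes had groups without overlap. Zfp90, which binds the neuronal repressor REST, spanned 1.13 to 1.52 FPKM in control and 1.80 to 1.89 FPKM in knockdown libraries (log2 fold change 0.29, limma adjusted p = 0.292). Zfp120 spanned 5.73 to 6.41 FPKM in control and 6.76 to 7.47 FPKM in knockdown libraries (log2 fold change 0.22, adjusted p = 0.307). With the GC and length trend removed, the log2 fold changes of Zfp90 and Zfp120 were 0.28 and 0.15.

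All 30 listed genes of the machinery that KRAB zinc finger proteins work through were measured, and none passed the test. Of these, 16 (53.3%) stood above control and 14 below, against 53% of all genes above, and their median log2 fold change was 0.02. An unadjusted p under 0.05 was found for 2 (6.67%), against 11.3% of all genes. Trim28, the corepressor itself, had control values of 27.3, 28.1 and 27.9 FPKM and knockdown values of 25.9, 28.1 and 28.7 FPKM (95% interval of the log2 fold change -0.12 to 0.10, limma adjusted p = 0.94). Setdb1 had a log2 fold change of 0.03 (-0.06 to 0.12) and Cbx5, which encodes the HP1 protein alpha, one of -0.00 (-0.11 to 0.11). The sign for Trim28 changed in 3 alternatives and that for Cbx5 in 4.

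Among the other genes with the smallest p, the DNA methyltransferase gene Dnmt3a had control values of 6.25, 6.18 and 6.62 FPKM and knockdown values of 13.9, 6.22 and 11.2 FPKM. Knockdown library 2 lay within the control range (log2 fold change 0.58, SE 0.24, limma adjusted p = 0.433), and without knockdown library 1 the log2 fold change was 0.35, without library 2 it was 0.88. The chromatin remodeller gene Smarcad1 had a log2 fold change of 0.11 (adjusted p = 0.528) and the HP1 gene Cbx3 one of 0.13 (adjusted p = 0.54).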

How the data were processed

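Per the labels' protocols, TRIzol was used for total RNA, ribosomal RNA was removed and a stranded kit made the libraries. HISAT2, StringTie and edgeR appear in the submitters' processing notes without version or role, beside the human build hg38, although all identifiers are mouse Ensembl genes. The deposited table gives no unit. Its values are not whole and were taken as FPKM computed by the authors, which is an assumption. They fit a step of whole bases, but other units scaled by length and depth would too, so the step does not settle the unit. To find the step, value times transcript length was multiplied by a depth fitted to each library on the smallest products, which were scored as well. Only genes with a single transcript and a small product were used, 1565 to 1592 per library. Of these, 75.2% to 76.9% fell within 0.1 of a whole number, where 20% would by chance if no depth were fitted. Strand setting and annotation: not given in the sources used here. Filtering is visible: in every gene the larger group mean is at least 0.501 FPKM.

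Identifiers without version were matched to GENCODE M21 (12300 of 12327). Genes that reached 0.5 FPKM in 3 or more libraries (12222) were fitted with limma 3.58.1 (R 4.3.3) on log2(FPKM + 1), with a mean-variance trend, no covariate and Benjamini-Hochberg adjustment over all of them. All members entered the fit. The method was tested on simulated data. KRAB boxes were scored with position weights over 38 residues from 127 genes matching a core pattern, with a threshold of 15 bits. GENCODE M21 coding sequences served throughout, in place of the RefSeq proteins first planned. The members, lists and rules were chosen with earlier results of these data known. Named are Zfp422, the 6 lowest and 6 highest fold changes, the 5 most abundant, 3 genes on each side of the limit, the 3 most variable, the 3 nearest Zfp422, those under an unadjusted p of 0.01 and 7 corepressor genes, of which 1 is not reported here. Genes outside this rule are named only as examples of a group or count. Alternatives were a replicate block, each library left out, other pseudocounts, filters, scalings and moderation, a loess correction (span 0.3) for GC content and length, and other limits on the mean. Python 3.11.15 did the rest.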

Additional observations from a re-analysis of the deposited data

How the results depend on the processing

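Zfp422 had the lowest fold change of the family in every fit that held it, from -2.32 with a pseudocount of 0.1 and -1.96 with 0.5 to -1.59 without control library 3 (-1.70 to -1.59 with each library left out). With a block for replicate number, 0 genes and 0 members passed (1330 genes and 27 members at an unadjusted p under 0.05), and likewise 0 and 0 with the block and the GC and length trend removed. Libraries of the same number had correlations of 0.09, 0.06 and 0.09 in their deviations from group means, so the numbers were not taken to pair the libraries, although each library correlated best with its own number. A minimum mean of 5 FPKM left 76 members without Zfp422, of which 0 passed, 29 were below control, 14 had groups without overlap and 75 had intervals within 2-fold. With each library left out, 6 genes (without knockdown library 2 or 3) to 18 genes (without control library 2) passed, 1 to 2 members passed, and 57 to 108 members had groups without overlap. That was 42.4% of members against 33.9% of all genes without control library 2 (108), and 30.2% against 28.6% without knockdown library 3 (77). In the other 4 such fits the members' share was below that of all genes, and with fewer libraries groups separate more readily by chance. Members below control then numbered 83 to 108, and their median log2 fold change was 0.02 (without knockdown library 1) to 0.06. Of 540 comparisons of named genes other than Zfp422 with their reported values, 2 lost the threshold (Gch1 with the block, adjusted p = 0.06 and 0.074), 2 gained it (Zfp28 and Zfp568, each without 1 library) and 0 called genes changed sign, while 7 uncalled genes did. No corepressor gene passed, a count of 0, in any fit. Values near 1 FPKM rest on little aligned sequence, an estimated 16.3 to 24.2 kb for Zfp422 in the knockdown libraries, and the number of reads is unknown.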
